A study of Schizosaccharomyces pombe with 3 samples.

Results

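Fission yeast (*Schizosaccharomyces pombe*) transcribes a set of meiotic genes at low levels while it divides by mitosis. Here 9 such genes were followed by their gene identifiers, among the 7049 genes of the deposited count table. They are the recombination genes *dmc1* (SPAC8E11.03c), *mcp7* (SPAC13A11.03) and *meu13* (SPAC222.15), the cohesin gene *rec8* (SPBC29A10.14), the nuclear movement genes *mcp5* (SPBC216.02) and *ssm4* (SPAC27D7.13c), and *mei4* (SPBC32H8.11), *crs1* (SPBC2G2.09c) and *spo5* (SPBC29A10.02), which act in the meiotic divisions and in sporulation. The study sequenced rRNA-depleted total RNA by strand-specific RNA-seq from 1 library of the wild-type parent and 1 library from each of 2 independent clones, slow #1 and slow #2. Both clones carry the *rpb1* mutation N494D, made at the endogenous locus by CRISPR, which slows elongation by RNA polymerase II. All 3 strains are h- and share *ade6-M216*, *leu1-32*, *ura4-D18* and *his3-D1* as well as deletions of *fex1* and *fex2*, so the wild type is itself a deletion strain. They were grown to mid-log phase at 30°C in EMM, a minimal medium, with added adenine, histidine, leucine and uracil. In such bulk RNA, a change in every cell cannot be told apart from a change in the share of cells that express a gene, nor can fewer expressing cells be told apart from less RNA per cell.

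As background, many meiotic transcripts made in vegetative cells carry a region named the determinant of selective removal (DSR). The RNA-binding protein Mmi1 recognizes short repeats with the core UNAAAC in this region and hands the transcript to the nuclear exosome for decay. On entry into meiosis the RNA-binding protein Mei2, together with the noncoding RNA *sme2*, captures Mmi1, and the transcripts accumulate. Another layer is transcriptional, since the forkhead factor Mei4 switches on genes of middle meiosis through FLEX elements in their promoters.

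The core motif, written TNAAAC in DNA letters and searched on the sense strand of the coding sequence, was present in all 9 genes. At least 1 copy also occurs in 78.0% of the 5113 coding genes of the RefSeq ASM294v3 annotation, so presence alone says little. Copies were dense in most of the meiotic genes, and 8 of 9 hold a window of 30 bases with 2 copies, as do 7.69% of coding genes. These windows are shown because they are the letters that the Mmi1 core stands for in each transcript, 5′ to 3′ on the coding strand, with the core in capitals and T for U.
mcp7 (chrI:578890-578919, + strand): tgattTGAAACaaaaatcTAAAACtttaga
meu13 (chrI:978606-978635, + strand): tTGAAACggagggaccaattgacTTAAACt
rec8 (chrII:2570135-2570164, + strand): tTAAAACcatggattgaaaagcTCAAACca
mcp5 (chrII:899377-899406, + strand): caagtcaTTAAACtttTCAAACcgactaaa
ssm4 (chrI:4535247-4535276, - strand): acagaagTTAAACattTGAAACtatgctta
mei4 (chrII:1473913-1473942, + strand): tagtTTAAACtcaaatattgTTAAACcccc
crs1 (chrII:3452378-3452407, - strand): tgcagaTGAAACttataTTAAACactcaaa
spo5 (chrII:2537532-2537561, + strand): gtTTAAACccagcaaaatcataTCAAACcg

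The density of the core set *dmc1* and *spo5* apart from the other 7 genes. Over its whole coding sequence *mcp7* holds 5 copies, or 7.90 per kilobase, which places it at percentile 99.4 of the coding genes. Next come *crs1* with 7 copies (7.75 per kilobase) and *meu13* with 5 copies (7.68 per kilobase). The longer genes *rec8*, *ssm4*, *mei4* and *mcp5* hold 11, 13, 10 and 18 copies, at densities between 6.19 and 6.52 per kilobase. In *spo5* there are 6 copies, or 3.52 per kilobase, and in *dmc1* there are 2, or 2.00 per kilobase, against a median of 1.51 over all coding genes. A match to these letters is not evidence that Mmi1 binds there.

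**Figure D1:**
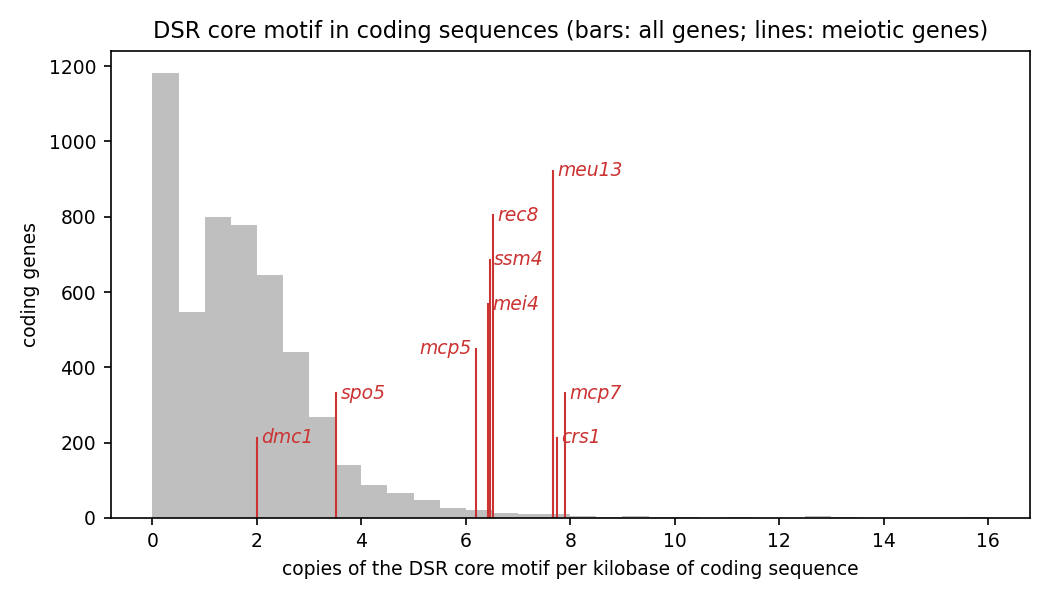
Copies of the DSR core motif per kilobase of coding sequence, with grey bars for the number of coding genes in each interval and a red line for each meiotic gene (line heights are only for labelling). Of the 9 genes, 7 lie at 6.19 copies per kilobase or more, and *dmc1* lies at 2.00.

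In the promoter windows, from 250 bases before to 50 bases after the annotated gene start, the 7-base core of the FLEX element (GTAAACA, searched on both strands) was found in *dmc1* and *mei4*. It occurs in 16.5% of the 5112 promoter windows of coding genes. In *dmc1* it spans bases -189 to -183 from the gene start, and in *mei4* bases -87 to -81, both on the strand opposite to the gene. The starts are those of ASM294v3, at 3382264 for *dmc1* and 1473068 for *mei4*, upstream of the starts in the deposited table that are given with the counts. They are shown on that strand, with the core in capitals, since *mei4* encodes the factor that is known to use this element.
dmc1 (chrI:3382063-3382092, - strand): tgcagctacatGTAAACAatgaacgcgtcg
mei4 (chrII:1472969-1472998, - strand): accgtaaatatGTAAACAcaagcaaggaaa
The core of the TR box (TTCTTTGTT, both strands), the element known for the factor Ste11, was in 0 of the 9 windows and in 2.00% of all windows. At that share, 0 of 9 says little. For *meu13* and *rec8* the annotated gene start is the first base of the coding sequence, so their windows are placed from the start codon.

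In the wild type, the meiotic genes were read at low levels with 1 exception. Per length of transcript, *mcp7* stood at 113 RPKM (counts scaled to library size and per kilobase of exon), at percentile 78.1 of the tested coding genes. The other 8 genes stood between 3.55 RPKM (*meu13*) and 28.5 RPKM (*ssm4*), at percentiles 3.25 to 27.9. In descending order the levels per length were *mcp7*, *ssm4*, *crs1* (19.7 RPKM), *mcp5* (12.4 RPKM), *mei4* (10.08 RPKM), *rec8* (8.0 RPKM), *spo5* (5.60 RPKM), *dmc1* (4.49 RPKM) and *meu13*. Neighbours in this order had 95% Poisson intervals that do not overlap, except *spo5* with *dmc1* and *dmc1* with *meu13*. These intervals cover counting error and say nothing of the spread between cultures, since the wild type has 1 library.

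In the slow clones *crs1* came first in this order, with 44.8 RPKM in slow #1 and 64.8 RPKM in slow #2. It was followed by *mcp7* at 44.1 RPKM in slow #1, close to *crs1*, and 42.9 RPKM in slow #2, well below it. Then came *ssm4* (mean 35.5 RPKM), *mcp5* (18.5), *rec8* (10.9), *mei4* (8.99), *spo5* (8.73), *dmc1* (7.18) and *meu13* (5.14), and of these neighbours the clones' values overlapped between *mei4* and *spo5*. The counts of the 9 genes added up to 336 CPM, counts scaled to a common library size with TMM factors, in the wild type and to 315 and 313 CPM in the clones. Within that sum *mcp7* made up 49.05% in the wild type and 20.5% and 20.1% in the clones.

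**Figure D2:**
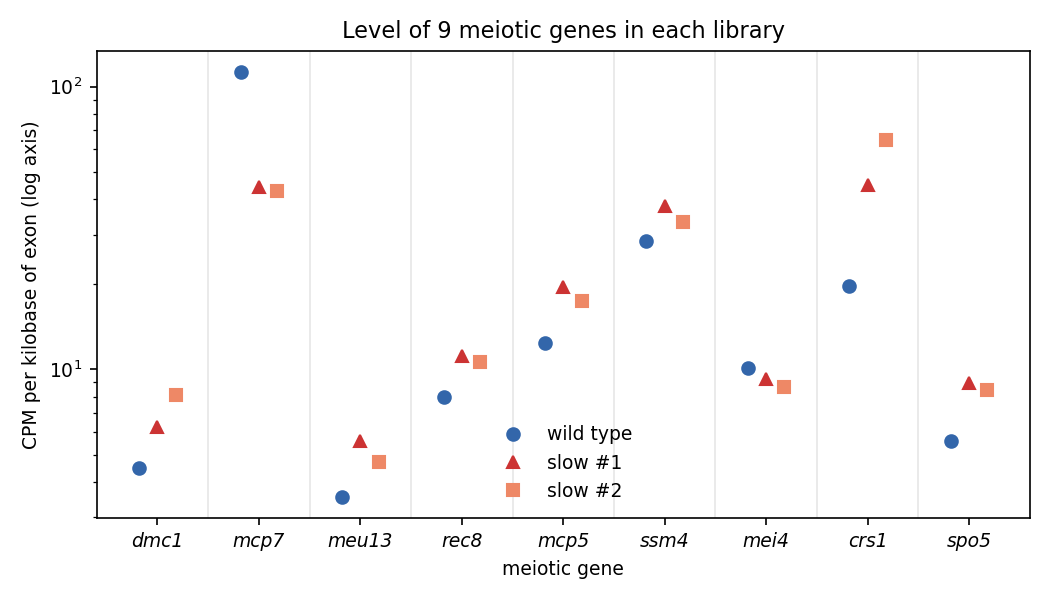
Level of each meiotic gene in the wild type, slow #1 and slow #2, as RPKM (CPM per kilobase of exon) on a log axis, with 1 point per library. *mcp7* stood at 112.7 RPKM in the wild type and at 44.1 and 42.9 RPKM in slow #1 and slow #2. *crs1* stood at 19.7 RPKM in the wild type and at 44.8 and 64.8 RPKM in slow #1 and slow #2.

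Compared with the wild type, 7 of the 9 genes were read higher in both slow clones, and *mcp7* and *mei4* lower in both. Over all 6418 genes tested, 42.7% were higher in both clones and 42.6% lower in both. The median log2 fold change of the 9 genes was 0.54, beside 0.01 over all genes tested and -0.03 over the 5014 coding genes tested. In edgeR's quasi-likelihood test with Benjamini-Hochberg adjustment, a gene was called where its adjusted p (FDR) was under 0.01 and its change above 1.5-fold. By this rule *mcp7* was called lower, and 0 of the 9 genes were called higher. Of all genes tested, 0.39% were called lower (25 genes) and 0.312% higher (20 genes) by the same rule. Scaled to the geometric mean of *nda2*, *act1* and *fba1*, a setting chosen after seeing the data that moves the median of all genes to -0.18, 187 genes were called higher and 611 lower, and of the 9 genes *crs1* higher and *mcp7* lower. At an unadjusted p under 0.05, 5 of the 9 were higher and 1 lower, where 17.5% of all genes tested were higher. The wild type has 1 library, so the test assumes that it varies as the 2 clones do. The test rests on 1 residual degree of freedom per gene and 5.25 prior degrees of freedom from all genes tested. The tested coding genes were also split by mean RPKM into 4 equal parts. Of the 9 genes, 6 fall in the lowest part and 2 in the next. The medians of all coding genes in these parts were -0.07 and -0.05 on the log2 scale. The lowest part spans 0.067 to 26.3 RPKM, while its 6 meiotic genes stood between 3.55 and 12.4 RPKM in the wild type. A median for coding genes at the level of these 6 alone was not taken.

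**Figure D3:**
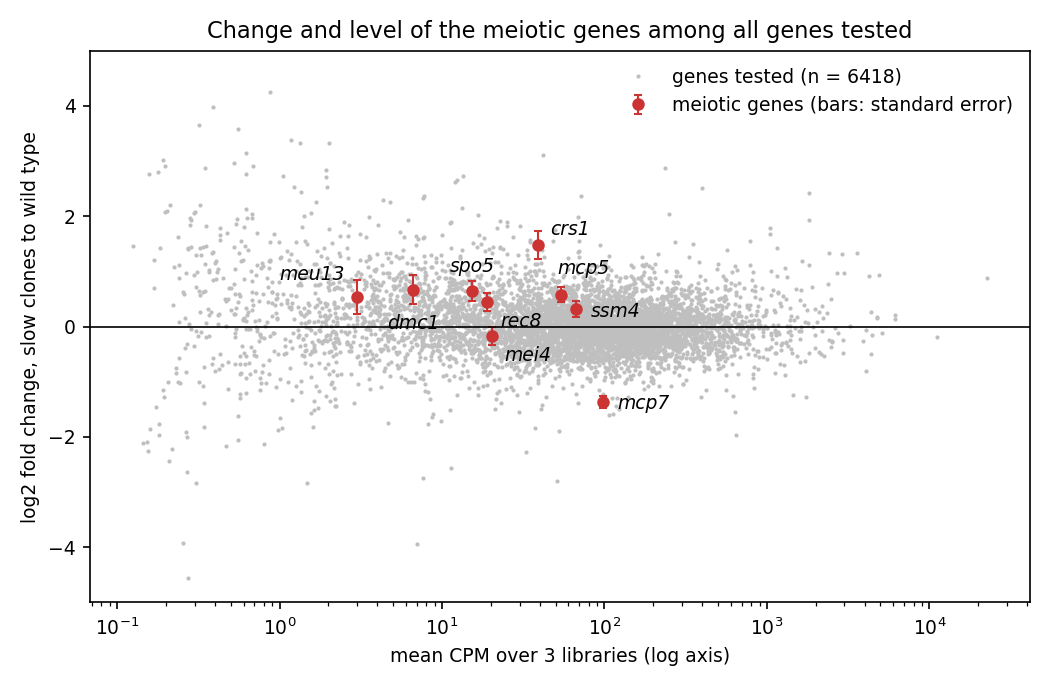
Log2 fold change of the slow clones against the wild type for all 6418 genes tested (grey), over the mean CPM of the 3 libraries on a log axis, with the 9 meiotic genes in red (bars: standard error). Of the 9 meiotic genes, 7 lie above 0, with *crs1* highest at 1.48 and *mcp7* lowest at -1.37, while 2 of the other genes lie beyond the axis.

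Among the recombination genes, *mcp7* fell in both clones by nearly the same amount. It encodes the fission yeast counterpart of Mnd1, which works with Meu13 in the pairing and strand exchange of homologous chromosomes. The gene lies on chromosome I from 578392 to 579948 on the + strand (ASM294v2, 2 exons, 1463 bases). The wild-type library gave 5274 counts, slow #1 2672 and slow #2 1884, that is 164.8, 64.5 and 62.8 CPM. The clones thus lie close together and far from the wild type. Its log2 fold change was -1.37 ± 0.109 (SE) at an adjusted p of 0.00496 in edgeR, a level 2.59-fold lower, and DESeq2 gave an adjusted p of 1.05e-10. The ratio to the wild type was 0.392 in slow #1 (95% exact interval of 0.374 to 0.410, counting error only) and 0.381 in slow #2 (0.361 to 0.402). With RLE size factors the log2 fold change was again -1.37, but the adjusted p was 0.0130 in edgeR and the call was lost.

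The partner gene *meu13*, the counterpart of Hop2, gave no such decrease. On chromosome I from 977709 to 978637 of the + strand (5 exons, 651 bases), it had 74 counts in the parent, 150 in slow #1 and 92 in slow #2. These are 2.31, 3.62 and 3.07 CPM, both clones above the wild type. Its log2 fold change was 0.54 ± 0.305 (SE) at an adjusted p of 0.257 in edgeR, short of the threshold. For slow #2 the interval of the ratio (0.966 to 1.83) includes 1, so at this depth a difference of that clone from the wild type was not detectable.

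The gene *dmc1* encodes the meiosis-specific RecA-like recombinase. Located on chromosome I from 3382274 to 3383404 on the + strand (2 exons, 1057 bases), it was read with 152 counts in the parent, 274 in slow #1 and 257 in slow #2. The levels were 4.75, 6.62 and 8.57 CPM, lowest in the wild type, and the clones differ from each other by a ratio of 1.29 (1.09 to 1.54). The log2 fold change was 0.67 ± 0.267 (SE) at an adjusted p of 0.131 in edgeR, which does not pass.

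The cohesin gene *rec8* encodes the meiotic kleisin subunit, which holds sister centromeres together through the first division. The gene spans chromosome II from 2568893 to 2570993 on the + strand (5 exons, 1914 bases). Its counts of 490, 884 and 612 gave 15.3 CPM for the parent, 21.4 for slow #1 and 20.4 for slow #2, so that both clones were above the wild type by a similar amount. The log2 fold change was 0.45 ± 0.168 (SE) at an adjusted p of 0.115 in edgeR, again short of the threshold. The ratios to the wild type were 1.39 (1.25 to 1.56) in slow #1 and 1.33 (1.18 to 1.503) in slow #2, so both clones exceeded the wild-type library by more than counting error.

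**Figure D4:**
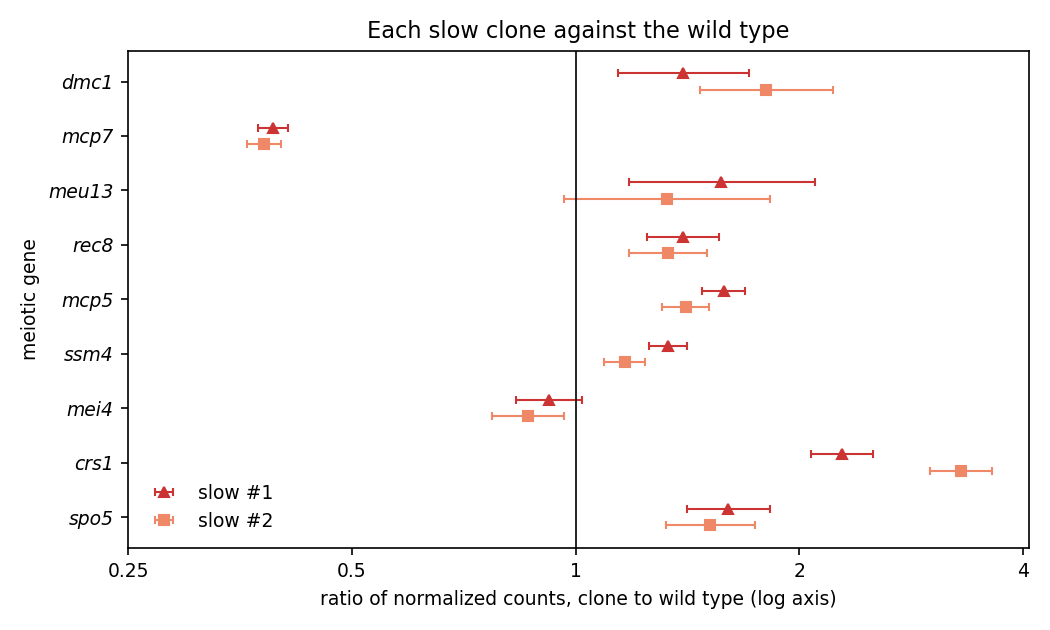
Ratio of normalized counts of each slow clone to the wild type on a log axis, with exact 95% intervals that cover counting error only. For *mcp7* both clones lie near 0.4 with narrow intervals, for *crs1* they lie at 2.28 and 3.30, and the intervals that include 1 are those of *meu13* in slow #2 and *mei4* in slow #1.

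The 2 genes of nuclear movement serve the dynein motor, which sweeps the nucleus back and forth in meiotic prophase. *mcp5*, named *num1* in RefSeq, encodes the cortical anchor of dynein. Its locus is on chromosome II from 898070 to 901363 on the + strand (1 exon, 3294 bases). Counts of 1307, 2674 and 1724 gave levels of 40.9 CPM in the parent, 64.6 in slow #1 and 57.5 in slow #2. Both clones lie above the wild type, with a log2 fold change of 0.58 ± 0.138 (SE). The adjusted p was 0.0409 from edgeR and the fold change of 1.495 stayed just under 1.5, so the gene passes neither threshold. *ssm4* encodes a dynactin subunit of the p150-Glued type. It lies on chromosome I from 4534674 to 4536686 on the - strand (1 exon, 2013 bases), with counts of 1835, 3159 and 2002. Its levels were 57.4 CPM for the parent, 76.3 for slow #1 and 66.7 for slow #2, the smallest relative difference among the 7 genes that were higher in both clones. The log2 fold change was 0.32 ± 0.136 (SE) at an adjusted p of 0.151 in edgeR.

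Among the regulators of the later steps, *crs1* and *spo5* were read higher in both clones, while the lower value of *mei4* was about the size of its SE. *crs1* encodes a meiosis-specific cyclin and had the largest positive difference of the 9 genes. Its 5 exons lie on chromosome II from 3452323 to 3453406 on the - strand (903 bases). The wild-type library gave 568 counts, slow #1 1676 and slow #2 1756, that is 17.8, 40.5 and 58.5 CPM. Both clones lie well above the wild type, and slow #2 lies above slow #1 by a ratio of 1.45 (1.35 to 1.55), more than counting error. The log2 fold change was 1.48 ± 0.247 (SE), a level 2.78-fold that of the wild type. The adjusted p of 0.0200 from edgeR does not pass 0.01. It passes at 0.05, where 6.79% of all genes tested were called higher, and DESeq2 gave an adjusted p of 1.38e-06 and called the gene. With library sizes from the summed counts of *nda2*, *act1* and *fba1* the adjusted p was 0.0955 in edgeR, and from their geometric mean 1.47e-05. DESeq2, the tool that the study used, calls more genes here. With it 5.08% of 6317 genes were called higher and 3.72% lower, and of the 9 genes *crs1* was called higher and *mcp7* lower.

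*spo5* encodes an RNA-binding protein needed for the meiotic divisions and spore formation. It lies on chromosome II from 2536164 to 2538254 on the + strand (3 exons, 1988 bases). Its counts of 356, 739 and 506 gave 11.1 CPM for the parent, 17.9 for slow #1 and 16.9 for slow #2. The clones lie together above the wild type, with a log2 fold change of 0.64 ± 0.18 (SE) and an adjusted p of 0.0594 in edgeR, which does not pass. *mei4*, the forkhead factor gene itself, was the other gene read lower in both clones. It lies on chromosome II from 1473125 to 1475285 on the + strand (1 exon, 2161 bases), with counts of 697, 831 and 564. Its levels were 21.8 CPM for the parent, 20.1 for slow #1 and 18.8 for slow #2, a log2 fold change of -0.16 ± 0.162 (SE) at an adjusted p of 0.506 in edgeR. In slow #1 the interval of the ratio to the wild type, 0.832 to 1.02, includes 1.

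Of the 9 genes, 6 share bases with another annotated gene, while *meu13*, *rec8* and *ssm4* do not. The libraries are strand-specific and were counted by strand, so reads of genes on opposite strands are kept apart. The 3′ end of *mcp7* runs over 596 bases against that of *ubp8* (SPAC13A11.04c), which encodes a ubiquitin protease of the SAGA complex. As *mcp7* fell, the level of *ubp8* was 73.8 CPM in the wild type and 106.3 and 111.8 CPM in the clones, a log2 fold change of 0.56 with an adjusted p of 0.0309 from edgeR, short of the threshold of 0.01. In ASM294v3 the coding sequence of *mcp7* ends at 579247, and 701 annotated bases follow the stop codon, so the overlap falls behind it. The opposite combination was seen at *crs1*, whose 3′ end overlaps that of *ade9* (SPBC2G2.08), an enzyme gene of folate and one-carbon metabolism, by 444 bases. Reads of *ade9* gave 233.9 CPM in the wild type and 129.8 and 127 CPM in the clones, which is a log2 change of -0.87 ± 0.114 (SE). Its adjusted p of 0.0121 from edgeR does not pass, and that of 6.51e-05 from DESeq2 does. The third such pair is *spo5* with the chromatin assembly factor gene *pcf1*, which overlap by 127 bases. *pcf1* had a log2 fold change of 0.0022 (adjusted p = 0.991 from edgeR).

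Genes that meet tail to tail in this way were common, and opposite signs within a pair were frequent among them. Of 772 such pairs of tested coding genes, 369 (47.8%) had fold changes of opposite sign. Where a gene of the pair was past 1.5-fold and the other past 0.5 on the log2 scale, as in the *mcp7* and *crs1* pairs, 10 of 24 pairs (41.7%) were of opposite sign. On the opposite strand of *dmc1* lies the noncoding RNA gene SPNCRNA.904, which covers it whole. This RNA stood at 23.7 CPM in the wild type and at 15.3 and 16.3 CPM in the clones, a log2 fold change of -0.58 with an adjusted p of 0.059 from edgeR, while *dmc1* was read higher. The noncoding RNA gene SPNCRNA.1397 likewise covers *mcp5*. It had a log2 fold change of 0.20 (adjusted p = 0.416 from edgeR), and SPNCRNA.566, a shorter gene that lies within it on the same strand, had 0 counts in each library. The counting options given include none for reads that overlap several genes, so that 0 may come from the counting and is not a level. *mei4* shares 58 bases on the same strand with *cdk9*, the gene of a kinase of transcription elongation, at a log2 fold change of 0.18 (adjusted p = 0.403 from edgeR). Whether any of these neighbours takes part in the values of the meiotic genes was not tested.

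**Figure D5:**
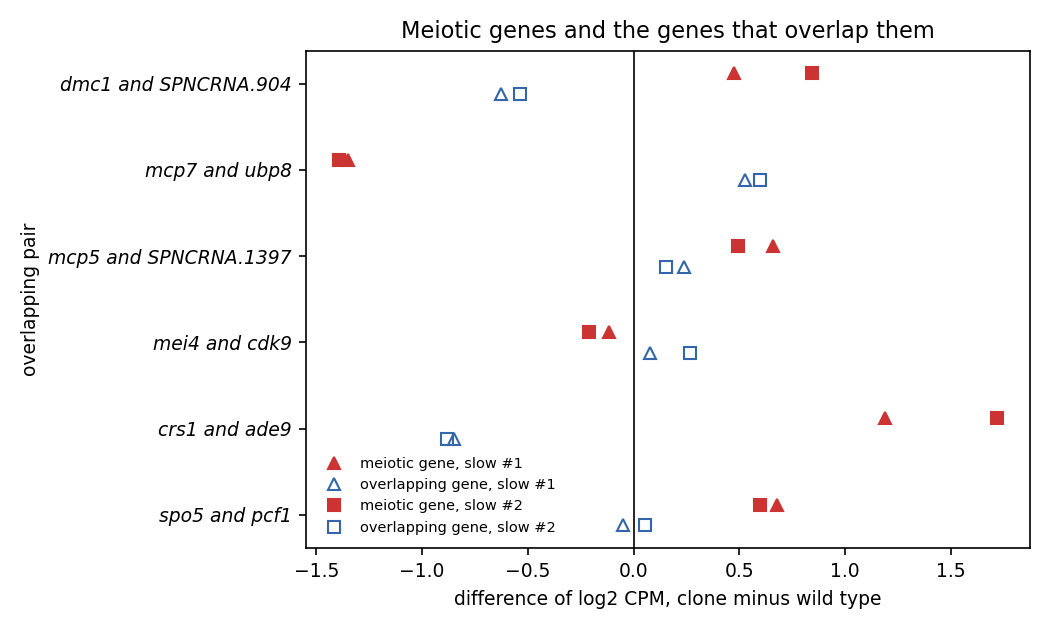
Difference of log2 CPM from the wild type in slow #1 (triangles) and slow #2 (squares), for each meiotic gene with an overlapping gene (filled) and for that gene (open). *mcp7* and *ubp8*, *crs1* and *ade9*, and *dmc1* and SPNCRNA.904 lie on opposite sides of 0 in both clones.

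The other genes of the elimination pathway were measured next to these. Of 18 genes of the Mmi1 system, 0 were called in either direction by edgeR (3 higher and 4 lower with an unadjusted p below 0.05, where the shares over all genes tested were 17.5% and 17.9%), and DESeq2 called 1 higher and 2 lower. The 3 and the 1 higher are near the shares of all genes given above. The median log2 fold change of the list was -0.08. Its largest value was that of *mei2*, which encodes the RNA-binding protein that turns Mmi1 off in meiosis, with 497 CPM in the wild type and 912 and 1063 CPM in the clones (log2 fold change 0.99, adjusted p = 0.023 from edgeR). The exosome subunit gene *dis3* had 379 CPM in the wild type and 243 and 238 CPM in the clones (log2 fold change -0.66, adjusted p = 0.025 from edgeR). *mmi1* itself, named here after its values were seen, stood at 176.6 CPM in the parent and at 112.6 and 116.4 CPM in the clones. Its log2 fold change was -0.63 (adjusted p = 0.022 from edgeR), so in edgeR these 3 values pass at 0.05 and not at 0.01. In DESeq2 the adjusted p was 4.74e-06 for *mei2*, 0.00311 for *dis3* and 0.00826 for *mmi1*. These 3 genes are the 1 higher and 2 lower that DESeq2 called.

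Other meiotic genes were set beside the shares of all genes tested, of which 42.7% were higher in both clones, 17.5% higher with an unadjusted p below 0.05 and 5.08% called higher by DESeq2. Of 19 tested genes of recombination and the linear elements, the chromosome axes of fission yeast meiosis, 16 were higher in both clones, with a median of 0.44, and 0 were called by edgeR (8 higher and 0 lower with an unadjusted p below 0.05; 1 higher in DESeq2). Among them *mug20*, a linear element gene, had a log2 fold change of 1.27 (adjusted p = 0.040 from edgeR), and *swi5*, a helper gene of strand exchange, 1.08 (adjusted p = 0.0103 from edgeR). Of 12 genes of cohesion, kinetochores and chromosome movement, 8 were higher in both clones around a median of 0.32, with 0 called by edgeR (3 higher and 0 lower with an unadjusted p below 0.05; 1 higher in DESeq2). The largest were *bqt1*, a bouquet gene that ties telomeres to the spindle pole body (0.68), and *kms1*, of the same link (0.67). Of 19 genes of middle meiosis and sporulation, 12 were higher in both clones around a median of 0.28, with 0 called by edgeR (8 higher and 0 lower with an unadjusted p below 0.05; 3 higher in DESeq2). Here *spo13*, of the spindle pole body in sporulation, reached 1.66 (adjusted p = 0.013 from edgeR), and *isp3*, a spore wall gene, 1.13 with the clones at 32.8 and 58.9 CPM against 20.9 CPM in the wild type.

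Genes of the mating types were read beside the h- label, under which the cells are of the M type. The 7 M-cell genes summed to 726 CPM in the wild type and to 1539 and 1437 CPM in the clones, and the 3 P-cell genes to 97.9, 103 and 107 CPM. These sums are over different genes and have no reference level, so they do not check the label, and in the wild type the M-cell genes *mfm3* (2.84 CPM) and *sxa2* (17.1 CPM) lay below each of the P-cell genes (23.9 to 39.8 CPM). All 7 M-cell genes were read higher in both clones, where 42.7% of all genes tested were. edgeR called 2 of the 7 higher (*mfm1* at 2.88 and *mfm3* at 2.72), beside 0.312% of all genes tested. Whether they take part in the values of the meiotic genes was not tested.

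The per-clone differences of each meiotic gene were compared with those of the 5005 other tested coding genes. By Euclidean distance over the 2 differences of log2 CPM from the wild type, the genes closest to *mcp7* were SPAC8E11.10 (distance 0.114), *ptr2* (0.126) and *mug73* (0.134), and those closest to *crs1* were *tps1* (0.067), SPAC23D3.17 (0.091) and *mug15* (0.102). The other 7 genes had closer matches. Closest to *dmc1* were *pfl5*, *cho1* and *sed5*, and to *meu13* *mag1*, *nnf1* and *fra2*. For *rec8* they were SPAC1805.10, *lsc2* and *pre9*, for *mcp5* SPBC21B10.02, *atg1803* and *mug126*, and for *ssm4* *vps26*, SPAC1782.12c and *ypf1*. For *mei4* they were *pcn1*, *dcr1* and *rpn11*, and for *spo5* *ypt5*, *aca1* and *dph4*. These distances describe 2 differences that share the wild-type library.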

How the data were processed

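Reads were trimmed by the authors with Trimmomatic 0.36 and aligned with STAR 2.5.1 to ASM294v2, and read pairs were counted per gene by strand with featureCounts (version not given in the sources used here). Deposited values are raw counts, not normalized, and sum to 31803128 (wild type), 40746838 (slow #1) and 30674459 (slow #2). Of 7049 genes, 343 have no count in any library. Exon lengths come from the same table.

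The slow clones were set against the parent by edgeR 4.0.16 under R 4.3.3 (filterByExpr at min.count 10 and min.total.count 15, TMM factors of 1.01, 1.02 and 0.978, quasi-likelihood test, Benjamini-Hochberg adjustment over 6418 genes), with thresholds taken from the study, FDR below 0.01 and more than 1.5-fold. edgeR estimated a common dispersion of 0.0124 and 5.25 prior degrees of freedom. The SE of a log2 fold change is its size over the square root of F. DESeq2 1.42.0 was the alternative. The study itself used DESeq2 (version 1.24) with these thresholds. Levels are CPM after TMM scaling, RPKM divides them by exon length in kilobases, and differences per clone use a prior count of 2. The 95% intervals of ratios between 2 libraries are exact conditional binomial intervals (SciPy 1.17.1) and those of levels exact Poisson intervals. Reads are PCR-amplified without molecular identifiers, so both cover counting error only. p-values rest on the spread between 2 clones, each read in 1 library, and on dispersion shared over all genes.

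Other normalizations, feature sets, filters and thresholds were tried. The scripts were tested on simulated data. Gene names were matched for 6859 of 7049 identifiers, the 9 meiotic genes by locus tag, through the RefSeq gene table of ASM294v3. Sequences and motif counts are from the RefSeq genome and annotation of ASM294v3, with the coordinates of that build, while gene coordinates are those of the deposited table (ASM294v2). Of 2501 coding genes with introns, 2391 (95.6%) have all introns at the same positions in both, including the 6 meiotic genes with introns.

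The 9 genes and the lists were chosen with earlier results of these data known. Named are the 9 genes, the genes that overlap them, the 3 coding genes closest to each over the 2 per-clone differences, and per list up to 4 called genes by fold change or, with 0 called, the 2 with the largest fold change. After values were seen, *hrs1* and *ars2*, symbols that here name another gene or repeat *pir2*, were dropped from the lists, and *mcp6* was moved to that of chromosome movement. *msh4* could not be matched.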

Additional observations from a re-analysis of the deposited data

How the results depend on the processing

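Of 90 values of the 9 log2 fold changes under other settings, 84 kept their direction and their call, by FDR and fold together, and 0 turned their direction. The FDR of 0.05 reuses the main fold changes and a robust fit in edgeR gave the same ones, so neither could turn a direction. The other normalizations move all genes by a similar amount, so the 0 is a weak check. In edgeR, RLE size factors called 0 genes higher and 0 lower (2205 genes at an unadjusted p under 0.05, smallest adjusted p 0.0102), so that 0 of the meiotic genes were called lower and 0 M-cell genes higher there. DESeq2 called 321 higher and 235 lower. The same counts were 379 and 333 with library totals alone, 127 and 129 without the filter on low counts, 4 and 11 without structural and mitochondrial genes, and 436 and 359 at an FDR of 0.05. Library sizes from the summed counts of *fba1*, *act1* and *nda2* gave 18 and 39, with the median over all genes at -0.17, and sizes from their geometric mean, added after seeing the data, gave 187 and 611. The sum, in which *fba1* weighs most, sets the clones apart by 1.05 and 1.22 times the wild type, and the geometric mean by 1.10 and 1.16, so counts under this scaling depend on how the 3 genes are joined. *mcp7* was lower under each of these settings, with adjusted p-values from 3.66e-13 to 0.0130. *crs1* was the 1 meiotic gene called higher with library totals, without the filter, in DESeq2, at an FDR of 0.05 and with the geometric mean.

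Of the lists, library totals called 1 gene higher and 2 lower of the Mmi1 system, 3 higher of recombination, 1 of chromosome movement, 3 of sporulation and 5 of the M-cell genes. DESeq2 called 1 and 2, 1, 1, 3 and 5 in the same order, and an FDR of 0.05 called 1 and 2, 5, 1, 2 and 5. The geometric mean called 1 and 2, 1, 0, 2 and 5. Without the filter 1 gene of recombination, 1 of sporulation and 4 of the M-cell genes were called higher. Each clone alone gives a value with no test, from -1.39 to -1.35 for *mcp7* and from 1.19 to 1.72 for *crs1*. No paired analysis was possible because the wild type has 1 library and shares no number with both clones. The causes of these shifts were not tested. The depth limits *meu13*, with 74 counts in the wild type. *dmc1* had 152 counts there, and the intervals of its ratios to the wild type exclude 1. They run from 1.14 to 1.71 in slow #1 and from 1.47 to 2.22 in slow #2, for counting error only.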

Other observations

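A high density of the DSR core was not limited to the 9 genes. Of the other tested coding genes, 71 hold 6 or more copies per kilobase of coding sequence, and their median log2 fold change was 0.29 (quartiles -0.09 and 0.64). The 4933 genes below that density had a median of -0.04 (quartiles -0.28 and 0.23), so the quartiles of both groups overlap. The dense genes are shorter, with a median coding length of 468 bases against 1161, and their median GC content was 38.3% against 39.7%. These values are a description with no test, and the density of 6 was chosen after the values of the 9 genes were seen. The 7 meiotic genes at or above it had a median of 0.45 and include both *crs1* and *mcp7*, which had the highest and the lowest value of the 9.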
